A study of Drosophila melanogaster with 2 samples.

Results

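The strongest binding sites of Ada2b in *Drosophila melanogaster* embryos were the 463 peaks with a signal of at least 250, out of 4796 peaks on the main chromosome arms (9.65%). The signal is the value that the authors' peak caller gave to each peak, so it chose these peaks and is given below as a description only. The peaks came from chromatin immunoprecipitation with an anti-GFP antibody on flies transgenic for an Ada2b-eGFP fusion. Whole embryos of the Ada2b-GFP strain, aged 0 to 18 h, gave 2 biological replicates of 1 group, with chromatin sonicated to 200 to 800 bp. Both replicates carried the fusion and came from 1 donor strain, the other alleles are not given by the labels, and all embryonic ages and cell types were pooled. A control is named as possible in the labels and was not analysed here. With 1 group no condition could be compared, so the strongest peaks were compared with the other 4333 peaks of the same list. Peaks are not replicates, and no test was run over them: shares are given with 95% Clopper-Pearson intervals, which cover counting error only, and medians with 95% order-statistic intervals. Read depth is unknown from peak lists.

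Ada2b is a subunit of SAGA, a coactivator complex in which the acetyltransferase Gcn5 modifies histone H3 and a separate module removes ubiquitin from histone H2B. Ada2b is needed for the activity of Gcn5 within the complex. SAGA is brought to promoters and enhancers by DNA-bound activators.

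The members' signal ranged from 250 to 2109.2 with a median of 360.5, against a median of 80.13 in the other peaks. Of the members, 122 had a signal of at least 500 and 24 of at least 1000, and together they held 34.0% of the summed signal of the list. The last peaks inside the threshold lay at the HemK2 promoter (250.1), outside genes near 18w (250) and upstream of CG14207 (250). The first peaks outside it lay in an intron of Pp2C1 (249.8), near CG18128 (249.1) and at the CG5815 promoter (249.0), so the threshold cuts a continuous range. The peak at Ada2b itself, the gene that the fusion copies, had a signal of 161.3, ranked 974 and was not a member.

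Members had an AT-rich centre between sharply GC-richer flanks, and a part of them carried 1 hexamer facing inward at both edges of that centre. The following windows of 251 bp on the plus strand of dm6 are centred on the summits of 7 strong peaks, taken from among the strongest without annotated coding or UTR sequence to show this layout and its exceptions, and read from the NCBI Release 6 genome. In the first 5 windows capitals mark ACAGTG on the left and its reverse complement CACTGT on the right. The last 2 windows have no such pair, and capitals mark the longest run of A and T (the first of equal length).
PAN3 promoter (chr3L:3081307-3081557): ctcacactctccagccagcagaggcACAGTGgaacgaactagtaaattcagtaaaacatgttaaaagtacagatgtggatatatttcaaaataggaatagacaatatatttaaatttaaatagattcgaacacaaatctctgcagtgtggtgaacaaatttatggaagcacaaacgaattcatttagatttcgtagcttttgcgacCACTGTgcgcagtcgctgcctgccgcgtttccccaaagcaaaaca
CG1635 promoter (chr3R:31588419-31588669): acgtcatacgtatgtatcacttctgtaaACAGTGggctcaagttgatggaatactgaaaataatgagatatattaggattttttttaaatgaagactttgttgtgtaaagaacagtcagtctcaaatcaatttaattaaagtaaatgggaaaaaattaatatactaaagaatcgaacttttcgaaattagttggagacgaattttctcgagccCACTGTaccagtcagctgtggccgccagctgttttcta
Rtnl1 promoter (chr2L:4997533-4997783): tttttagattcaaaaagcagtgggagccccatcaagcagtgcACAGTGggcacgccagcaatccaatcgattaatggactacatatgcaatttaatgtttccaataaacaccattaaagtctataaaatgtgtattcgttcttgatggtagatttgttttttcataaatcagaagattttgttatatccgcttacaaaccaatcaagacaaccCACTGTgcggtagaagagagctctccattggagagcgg
NFAT intron (chrX:13640392-13640642): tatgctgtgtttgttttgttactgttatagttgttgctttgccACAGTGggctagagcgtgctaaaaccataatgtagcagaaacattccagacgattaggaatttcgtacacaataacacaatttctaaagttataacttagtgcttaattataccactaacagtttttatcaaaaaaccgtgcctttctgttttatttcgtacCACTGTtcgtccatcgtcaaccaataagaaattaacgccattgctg
tara upstream (chr3R:16222363-16222613): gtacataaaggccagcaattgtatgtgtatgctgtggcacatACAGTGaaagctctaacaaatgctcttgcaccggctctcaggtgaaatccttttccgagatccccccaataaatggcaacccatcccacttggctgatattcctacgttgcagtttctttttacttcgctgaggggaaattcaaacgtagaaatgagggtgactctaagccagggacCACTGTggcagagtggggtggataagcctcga
ph-p intron (chrX:2137238-2137488): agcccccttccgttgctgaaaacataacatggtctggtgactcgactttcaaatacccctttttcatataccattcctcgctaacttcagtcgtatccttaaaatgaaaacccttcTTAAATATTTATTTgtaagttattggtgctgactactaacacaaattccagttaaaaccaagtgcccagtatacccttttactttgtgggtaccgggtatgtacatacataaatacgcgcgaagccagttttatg
mRpS10 and Art3 promoter (chr3R:15229414-15229664): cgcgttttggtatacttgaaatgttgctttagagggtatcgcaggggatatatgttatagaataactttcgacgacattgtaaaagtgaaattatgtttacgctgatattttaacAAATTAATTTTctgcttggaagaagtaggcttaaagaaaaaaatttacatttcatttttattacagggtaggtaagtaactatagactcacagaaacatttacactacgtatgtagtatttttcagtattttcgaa

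PAN3 encodes a subunit of a deadenylase that shortens poly(A) tails, and Rtnl1 encodes a reticulon that shapes the endoplasmic reticulum. NFAT encodes a transcription factor of the Rel family, tara a nuclear regulator with genetic links to trithorax, ph-p a Polycomb group protein and mRpS10 a mitochondrial ribosomal protein. The PAN3 peak had a signal of 444.9 in replicate 1 and 362.4 in replicate 2, and its hexamers spanned 187 bp around a centre of 28.71% GC between flanks of 53.0%. At CG1635 the pair spanned 191 bp, with signals of 464.8 and 340.6. At Rtnl1 it spanned 177 bp, with 409.3 and 390.4. In the NFAT intron it spanned 168 bp, with 399.6 and 349.1. The site near tara was an exception in composition: its pair spanned 183 bp, but its centre had 47.52% GC against 39.0% in its flanks.

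Over all members, the central 101 bp had a median GC content of 27.72%, against 31.68% in the other peaks, and the flanks (101 to 150 bp to each side) had 45% against 42%. The median drop from flanks to centre was 16.24 percentage points (interval 15.3 to 17.27) in members and 9.228 (8.347 to 9.317) in other peaks. The drop, like the hexamer positions below, is measured from the summit. In the replicates' ranked lists of candidates, summits lay a median of 10 bp apart in members and 24 bp apart in other peaks. The effect of this on the drop was not tested. The drop was at least 10 points in 353 of 463 members (76.2%, interval 72.1 to 80) and in 2037 of 4333 others (47.0%, 45.5 to 48.5). Only 27 members had a centre as GC-rich as their flanks or richer. The trough was seen at promoters (median centre 27.72% in members, 32.67% in others) and away from them (28.71% and 31.68%). By signal bin the median centre was 28.71% at 150 to 250, below the threshold for members, and also at 250 to 400, and 27.72% in both bins above. In 20 bp bins the members' mean GC was 43.5% at 81 to 100 bp left of the summit and 28.3% next to it.

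ACAGTG was chosen after these data were examined. It was the hexamer with the largest excess of members over other peaks 45 to 115 bp from the summit. Hexamers were read toward the summit in that choice. The excess and the inward direction of ACAGTG in members are therefore a description with no test. Read toward the summit, it occurred on 172 of 926 member flanks (18.6%) and on 655 of 8666 others (7.56%). Within 40 to 125 bp of the summit, it lay in the inward direction on the left flank of 93 members (20.1%) and in the outward direction on that flank of 15 (3.24%). On the right flank the inward direction was found in 96 members (20.7%) and the outward in 20 (4.32%). Other peaks had the same bias at lower inward shares. They had 8.75% inward and 3.0% outward on the left flank, and 9.0% and 2.61% on the right.

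An inward pair, with 1 copy on each flank, was present at 51 of 463 members (11.0%, interval 8.31 to 14.2) and at 135 of 4333 other peaks (3.12%, 2.62 to 3.68), against 3.88% of all peaks. The pair facing outward was found at 2 members (0.432%), at 3 other peaks (0.0692%) and at 0.104% of all peaks. Of windows of the same length at 13968 protein-coding starts, centred 113 bp upstream, 19 (0.136%) held the inward pair. These windows lie at a fixed distance from each gene's most upstream TSS, not on a summit. A pair away from their centre can be missed, so their share is not directly comparable with that of peaks. The windows of all promoters used below for motifs were placed in the same way. Among promoter peaks the inward pair was present at 23 of 269 members (8.55%) and 21 of 1690 others (1.24%), and away from promoters at 28 of 194 members (14.4%) and 114 of 2643 others (4.31%). The share rose from 0.602% of peaks with a signal under 50 to 5.66% at 150 to 250, and was 10.2% at 250 to 400, 13.8% at 400 to 600 and 10.5% above. The pairs spanned a median of 177 bp (range 128 to 243) in members and 171 bp in other peaks. Closer to the summit than these flanks, the hexamer was found in 2.38% of members and 5.86% of others. Other hexamers in excess at member flanks overlapped ACAGTG by sequence (CAGTGG, 15.1% against 5.15%) or did not (GGCGTA, 4.43% against 0.923%, and AAGGGG, 5.4% against 1.64%).

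**Figure D1:**
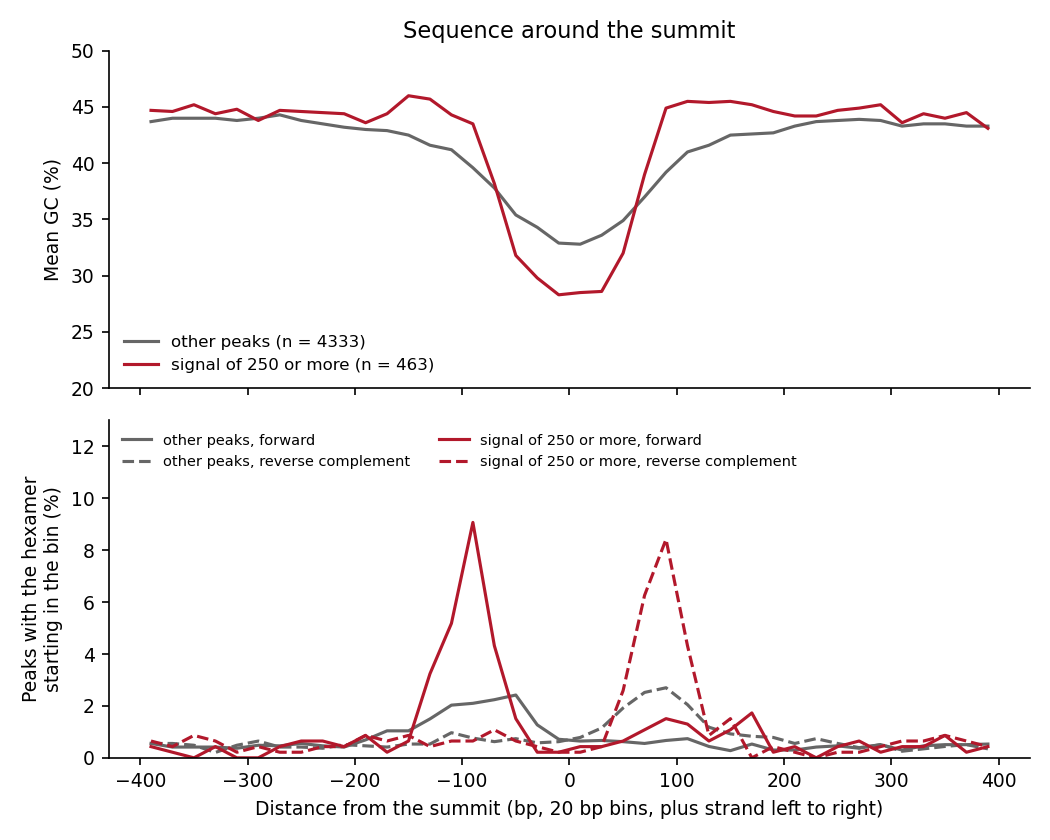
Sequence around the summits of 463 peaks with a signal of at least 250 (red) and 4333 other peaks (grey), by distance from the summit in bp in 20 bp bins. The upper panel plots mean GC (%), on an axis that does not start at 0, and falls to 28.3% beside the summit in the strong peaks; the lower plots the share of peaks (%) in which ACAGTG (solid) or its reverse complement (dashed) starts in the bin, with peaks of 9.07% to the left and 8.42% to the right.

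Of 12 motifs searched on both strands of 301 bp windows, the GAGA element GAGAGAG, bound by GAGA factor, differed most between members and others. It was present in 65 of 463 members (14.0%, interval 11.0 to 17.5), in 254 of 4333 others (5.86%, 5.18 to 6.6) and in 5.94% of promoter windows of all genes. Among the 122 members with a signal of at least 500 it was present in 28 (23%, 15.8 to 31.4). By signal bin the share was 8.1% at 150 to 250 (6.13 to 10.5), below the threshold for members, 8.48% at 250 to 400 (5.51 to 12.4), 24.5% at 400 to 600 (16.2 to 34.4) and 20.9% at 600 or more (12.9 to 31.0), so members under 400 had about the share of the peaks just below the threshold. The shares were alike at promoters (13.8%) and away from them (14.4%). None of the 463 members held GAGAGAG within the central 101 bp (interval 0 to 0.794%), against 0.808% of other peaks and 3.31% of promoter windows, so all 65 matches lay wholly or partly in the flanks.

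At promoter members the DRE and the Motif 1 core had lower shares than at other promoter peaks, and the E-box had a higher share in the 301 bp window. The DRE, TATCGATA, was found at 16 of 269 promoter members (5.95%, interval 3.44 to 9.48) and at 9.7% of other promoter peaks (8.33 to 11.2). The Motif 1 core, GGTCACAC, was found at 7 promoter members (2.6%, 1.05 to 5.29) and at 6.86% of other promoter peaks (5.7 to 8.18). The E-box CAGCTG was found at 68 promoter members (25.3%, 20.2 to 30.9) and at 19.2% of the others (17.3 to 21.1), and in 17.7% of all promoters. In the central 101 bp the order was the other way, with the E-box at 2.23% of promoter members (0.823 to 4.79) and 4.73% of other promoter peaks (3.77 to 5.86). CGATA, which is contained in the DRE, was found in 38.0% of members and 35.9% of others, TATAAA in 46.4% and 45%, CATCNCTA (Motif 7 core) in 6.05% and 5.29%, and GATAAG in 13.8% and 14.4%. CACACACA was found in 7.34% and 6.62%, TGANTCA in 6.7% and 7.52%, the Zelda site CAGGTAG in 0.864% and 1.52%, and the CTCF core AGGTGGCG in 0.864% and 1.48%. In the central 101 bp TATAAA was found at 32.0% of promoter members (26.4 to 37.9), 22.9% of other promoter peaks (20.9 to 25) and 19% of all promoters. Away from promoters it was found there at 24.2% of members and 23.6% of other peaks. The central GC content of promoter members was lower than that of other promoter peaks (median 27.72% against 32.67%). Its effect on motif shares in the central 101 bp was not tested. A match to these letters is a description of sequence, not a binding site.

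The strongest peaks lay at promoters more often than the rest of the list. A promoter peak here has its summit within 500 bp of an annotated transcription start site (TSS) of a protein-coding gene. This held for 269 of 463 members (58.1%, interval 53.5 to 62.6), for 1690 of 4333 other peaks (39.0%, 37.5 to 40.5) and for 40.8% of all peaks. Introns held 136 members (29.4%, 25.3 to 33.8) and 40.3% of others, and sequence outside protein-coding genes held 53 members (11.4%, 8.69 to 14.7) and 18.6% of others. The remaining 5 members had summits in 3' UTRs (3), a 5' UTR (1) and a coding sequence (1). The promoter share rose across signal bins from 33.9% under 50 to 44.3% at 150 to 250 and 64.0% at 600 or more. When a gene was represented by its most upstream TSS alone, promoters held 44.1% of members and 31.3% of others, and introns held 41.7% and 46.5%.

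**Figure D2:**
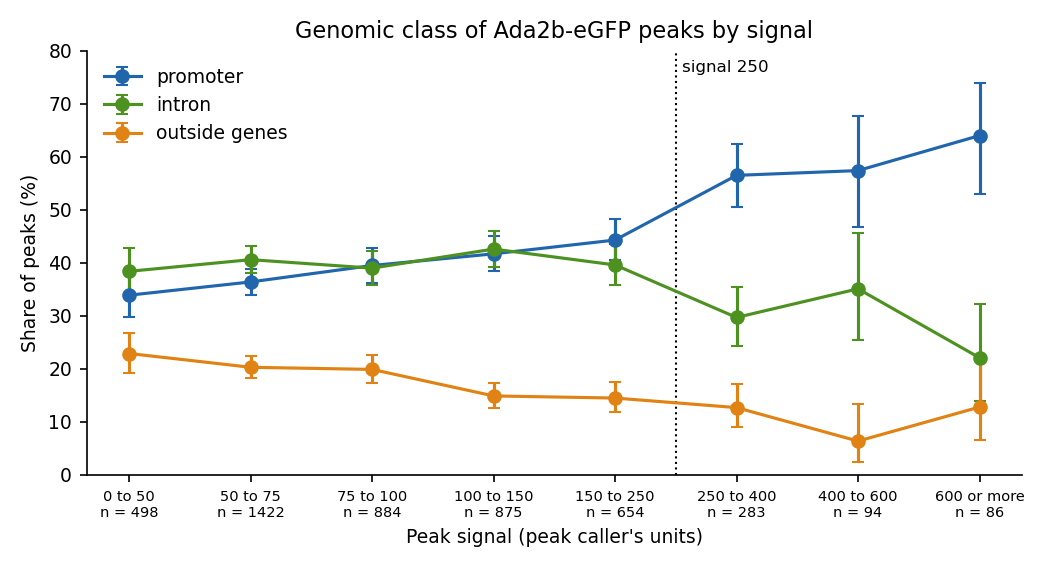
Share of peaks (%) at promoters (blue), in introns (green) and outside protein-coding genes (orange) by bin of peak signal in the peak caller's units, with 95% Clopper-Pearson intervals as bars and the number of peaks under each bin. The dotted line marks the threshold of 250, right of which promoters held 56.5%, 57.4% and 64.0%.

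The same difference was found when the top 9.65% was taken from each replicate's own thresholded list. Promoters held 56.7% of the 363 strongest peaks of replicate 1 and 61.2% of the 291 strongest of replicate 2 (58.95% ± 3.182, SD, n = 2). They held 40% and 44.2% of the remaining peaks (42.1% ± 2.97, SD, n = 2). The lowest of the strong values was above the highest of the remaining ones. Introns held 29.5% and 28.2% of the strongest peaks and 40.8% and 37.9% of the rest. Signals are not normalised between lists, so the same share from the top was used, not the same signal.

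The median summit position at promoters was -141 bp (interval -153 to -130, quartiles -206 and -93) in members and -106.5 bp (-113 to -101, quartiles -195 and -36) in others. Between 200 and 50 bp upstream lay 156 of 269 members (58.0%, interval 51.8 to 64.0) and 47.2% of others (44.8 to 49.6). Downstream of the TSS lay 33 members (12.3%, 8.6 to 16.8) and 18.3% of others (16.5 to 20.3). The members' positions stopped sharply near the TSS: the bin from 100 to 75 bp upstream held 10.8% of them and the next bin, 75 to 50 bp upstream, held 2.23%. By signal bin the median was -129 bp at 150 to 250, below the threshold, -139 bp at 250 to 400, -169 bp at 400 to 600 and -128 bp at 600 or more, with no steady trend. In the replicates' own top lists the median was -144 and -135 bp, against -114 and -118 bp for the remaining peaks.

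**Figure D3:**
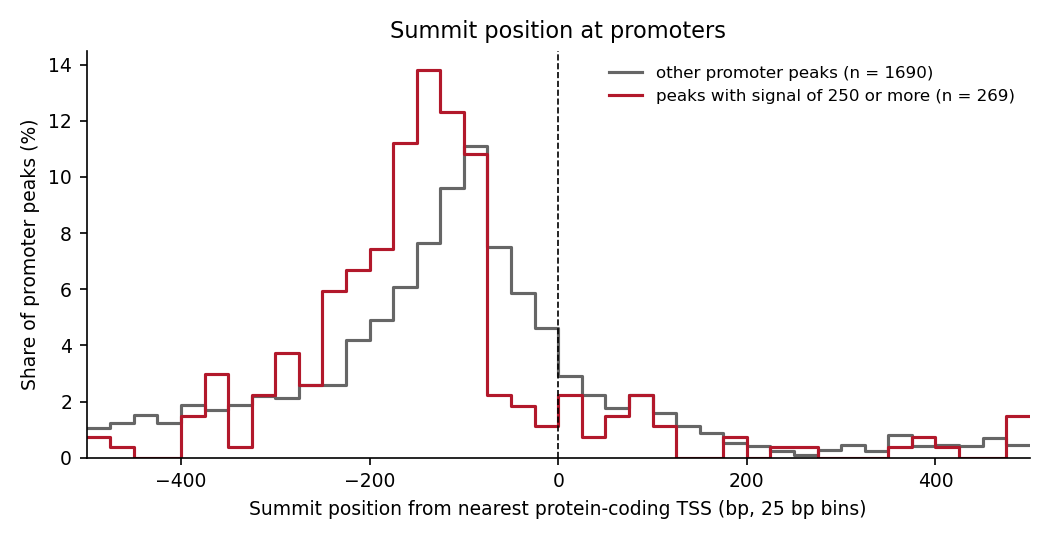
Summit position from the nearest protein-coding TSS (bp, 25 bp bins) for 269 promoter peaks with a signal of at least 250 (red) and 1690 other promoter peaks (grey), as a share of each set (%). The red curve reaches 13.8% between 150 and 125 bp upstream and falls to 2.23% at 75 to 50 bp upstream.

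A promoter summit lay within 500 bp of more than 1 gene's TSS at 101 of 269 members (37.5%, interval 31.7 to 43.6), at 584 of 1690 others (34.6%, 32.3 to 36.9) and at 35% of all promoter peaks. With a 250 bp window the shares were 36.2% (29.9 to 42.9) and 27.1%. In 88 of these members (32.7% of promoter members, 30.4% in others) the genes were divergent, with the summit between their starts, and 6 were divergent with the summit outside. The starts of such divergent pairs were 272.5 bp apart at the median in members (257 to 288) and 319 bp in others (302 to 340). Shared members had their summit at a median of -107 bp from the nearer TSS (others -84.5), and unshared members at -171 bp (others -133.5). Signal at a shared peak cannot be assigned to either gene.

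Single promoters show these layouts. The strongest peak, at Ugalt, the gene of a UDP-galactose transporter, had signals of 1280.4 and 843.7 in replicates 1 and 2, the highest in both lists, with its summit 31 bp upstream of the TSS. The mRpL41 peak (chr2R:15217597-15217906) had 967.8 and 832.8, and that of CG14100 had 1024.2 and 721.8. Between CG7601 and CIA30, an assembly factor of respiratory complex I, 220 bp separated the divergent starts, and the peak had 848.3 and 798.4. PNPase, the mitochondrial polynucleotide phosphorylase, had its summit 79 bp downstream of its TSS and signals of 794.0 and 608.7. Other strong promoter peaks also had a downstream summit, among them those at Chro (81 bp) and GstE13 (80 bp).

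Between CenG1A, which encodes a GTPase-activating protein of Arf, and mRpS23, the peak had signals of 726.6 and 636.8 and an inward ACAGTG pair that spanned 184 bp. Between CG5611 and Mtl it had 685.4 and 608.8. Its central 101 bp had 15.84% GC. The lowest value among members, 13.86%, was found at 3 members, one of them the shared promoter of Arl1, a Golgi GTPase, and brm, the ATPase of the Brahma remodelling complex. The Arl1 and brm peak (chr3L:15982863-15983145) had signals of 487.8 and 350.0. Tcs5, for tRNA modification, shared its peak with CHMP2B of the ESCRT-III complex (705.8 and 578.4). Art3, an arginine methyltransferase, shared its peak with mRpS10 (690.2 and 581.6).

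Of the 30 strongest promoter members, 13 served more than 1 gene and 23 had the summit upstream of the nearest TSS. The shares were 37.5% and 87.7% over all promoter members, and 35.0% and 82.4% over all promoter peaks. Upstream summits were thus not more common among these 30. Ssl1, a TFIIH subunit, shared its peak with Chro, a chromodomain protein of polytene interbands (642.4 and 404.6). Elp5 of the Elongator complex shared one with CG1275 (460.0 and 389.9), Shc, an adaptor of receptor tyrosine kinases, one with Atat, a tubulin acetyltransferase (449.0 and 395.3), and mRpL23 one with CG9004 (399.4 and 416.3). CG13390 shared a peak with CG17294 (577.8 and 469.4), Fbw5 with CG9147 (511.9 and 413.5) and tank with CG12194 (489.8 and 322.5).

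Among single promoters of the 30, eIF6, a factor of large ribosomal subunit biogenesis, had 587.8 and 598.8, and gish, a casein kinase, had 623.1 and 411.5. The wing vein gene px had 713.7 and 424.4, amon, a prohormone convertase, 492.8 and 358.0, and Gapdh2, a glycolytic enzyme, 496.9 and 312.7. GstE13, a glutathione transferase, had 559.0 and 439.6, Fkbp14, a prolyl isomerase of the endoplasmic reticulum, 594.2 and 312.0, and Tina-1 622.3 and 452.9. CG18549 had 644.3 and 507.4 and CG1888 had 540.3 and 371.2.

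Away from promoters, the members in introns lay closer to a TSS than other intronic peaks did. Their median distance to the nearest protein-coding TSS was 1667.5 bp (interval 1342 to 2199) against 3115 bp (2835 to 3366), and 76 of 136 (55.9%, 47.1 to 64.4) lay within 2000 bp against 37.9% of other intronic peaks (35.6 to 40.2). Members outside genes did not share this: their median distance was 4534 bp (3086 to 6326), with 4088 bp (3689 to 4461) in others. A start of a noncoding gene lay within 500 bp of 14 of the 194 members away from promoters (7.22%, 4.0 to 11.8) and of 4.35% of others (3.61 to 5.2). No member had its summit in an annotated transposable element, and 15 of the other 4333 peaks did.

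Of the 15 strongest members away from promoters, 11 lay in introns. Introns held 136 of all 194 members away from promoters and 1881 of all 2837 such peaks of the list, which are similar shares. The intron of CG11050 held the strongest of the 15 (chr2L:6612545-6612879), with signals of 1019.6 and 842.4. The ph-p intron peak (817.2 and 597.4) lay 508 bp from a TSS, just past the promoter window, and a weaker member with its summit 478 bp downstream of a ph-p TSS had 368.8 and 268.6. CG32772 had 722.4 and 484.2 in its intron, Adf1, a transcription factor gene, 621.0 and 540.6, and Tlk, the Tousled-like kinase gene, 537.7 and 486.6. The phospholipase C gene norpA of phototransduction had 543.5 and 436.1, and Trl, which encodes GAGA factor, had 455.3 and 414.0. An intron annotated to both HmgD and HmgZ, genes of HMG-box proteins, had 507.1 and 420.6. The others in introns lay in CG3726 (494.2 and 445.0), CG32486 (473.5 and 390.5) and CG12769 (500.4 and 340.0). Outside genes, the site at -3163 bp from the tara TSS had 708.4 and 454.3, and a site nearest CG13323 had 663.7 and 481.4. One nearest CG4004 lay within 500 bp of a noncoding start (lncRNA:CR44619) and had 631.8 and 451.6, and one near DNAlig3, a DNA ligase gene, had 521.8 and 358.0.

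Members formed 414 loci when neighbours within 10000 bp were joined. Of these, 371 held 1 member, 38 held 2, 4 held 3 and 1 held 4, so 92 members had another member nearby. Other peaks of the list were not joined in this way, so whether members lie together more often than other peaks is not known. The loci named next were picked for this description by their count alone. The locus of 4 lay at CHES-1-like, a forkhead gene, with a promoter peak of 323.2 and intron peaks of 732.6, 378.6 and 371.2. Upstream of chinmo, which encodes a zinc-finger factor of neuronal timing, 3 members outside genes lay at -18443, -12470 and -7809 bp from its TSS, with signals of 820.1, 449.8 and 441.4. The other loci of 3 lay at Csk and CG42327, at Ptpmeg2, and between CG4004 and Paics.

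By gene function, mitochondrial ribosomal proteins had many strong promoter peaks for the number of their peaks, though most of these were shared with another gene. Of the 2444 protein-coding genes with any promoter peak, 372 (15.2%) had a member. For mitochondrial ribosomal proteins the count was 7 of 20 (35.0%), though the median signal over the 20 (103.9) was close to that over all 2444 genes (103.6). The other strong ones after mRpL41, mRpS23, mRpS10 and mRpL23 were mRpL24 (206.6 in replicate 1 and 172.2 in replicate 2), mRpS2 (174.0 and 160.2) and mRpL20 (137.8 and 141.2). The 6 other than mRpL41 shared the peak with another gene. For mRpS23, mRpL24, mRpS2 and mRpL20 the summit lay nearer to the TSS of the partner (CenG1A, betaggt-I, Mon1 and Icmt). Cytosolic ribosomal proteins had 1 of 37 (2.703%), RpL32 (173.9 and 154.8), with a median signal of 104.5. The medians of both groups were close, while 7 and 1 genes passed 250; the difference was not tested.

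Among genes of transcription and chromatin with a promoter peak, chromatin regulators had a strong one at 3 of 10 (30%): brm, ph-p and Ino80, the ATPase of another remodelling complex (162.3 and 126.5). The brm peak was shared with Arl1, whose TSS lay nearer, and counts for both. The ph-p summit lay 478 bp downstream of its TSS. The difference from the 15.2% over all genes with a promoter peak was not tested. A further 4 members lay away from promoters inside chromatin regulator genes, in Psc, a Polycomb group gene (237.9 and 165.1), in ph-p, and as a pair of peaks in osa, a Brahma complex subunit gene (496.7 and 341.3 for the stronger). Members inside genes were not counted over all genes, so this count has no share to be set against. Insulator and promoter factors had 2 of 12, Chro and Cp190, an insulator cofactor (172.2 and 153.4). The general transcription machinery had 2 of 17, the Mediator subunits MED27 (280.2) and MED30 (260.2). Among genes of SAGA and ATAC, Gcn5 alone of 8 with a peak was strong (136.3 and 132.5), at a promoter shared with ver, a telomere protein gene.

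In translation and metabolism, translation factors had 2 of 16 (eIF6 and eEF1gamma), aminoacyl-tRNA synthetases 2 of 9 (GluProRS at 338.2 and SerRS at 250.8), the respiratory chain and ATP synthase 1 of 13 (ND-ASHI at 364.4), splicing factors 1 of 10 (U2af50 at 301.9), the proteasome 0 of 7 and mitochondrial import 0 of 3. In membrane traffic, endosome, autophagy and vacuolar ATPase genes had 4 of 25 (16.0%): CHMP2B, Vps33B (355.3), Vha100-2 (279.8) and Vps50 (250.3). Small GTPases had 1 of 10, Arl1. These shares lie on both sides of 15.2%, and most rest on 1 or 2 genes.

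Developmental groups had members at promoters and inside genes. The counts inside genes are a description only, because they were not made over all genes or for the other peaks, and gene length was not considered. Signalling genes had 3 of 15 at promoters: gish, the Wnt pathway kinase gene sgg (217.9 and 126.0) and spi, an EGF receptor ligand gene (153.0 and 127.0). Another 4 members lay inside signalling genes, among them aos, an inhibitor of the EGF receptor (245.0 and 191.6), and Mad, the BMP pathway transducer (164.9 and 92.95). The neuronal and glial genes with strong promoters were moody, a receptor gene of the blood-brain barrier (267.1 and 295.5), and elav, the neuronal RNA-binding protein gene (288.4 and 271.2), 2 of 6. Ecdysone response genes had E23, an ABC transporter gene (279.2 and 170.3), 1 of 6, and 5 members inside the genes of the nuclear receptors Hr3 (312.4 and 236.2) and Hr4 (3 peaks, the strongest 257.0 and 174.1) and of Eip63E (234.7 and 194.6), a cyclin-dependent kinase. Heat shock genes had Hsp27 (385.8 and 288.4), 1 of 6. Patterning factors had 1 of 9 and muscle and mesoderm genes 1 of 3, in both cases tin, the heart and mesoderm homeobox gene (162.2 and 114.7). Cell cycle genes had Dp (305.0), 1 of 12, and germ line genes orb (258.9), 1 of 9. Genes known only by a CG number made up 129 of the 372 (34.7%, interval 29.8 to 39.8), 30.1% of genes with a weaker promoter peak and 43.7% of all protein-coding genes.

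**Figure D4:**
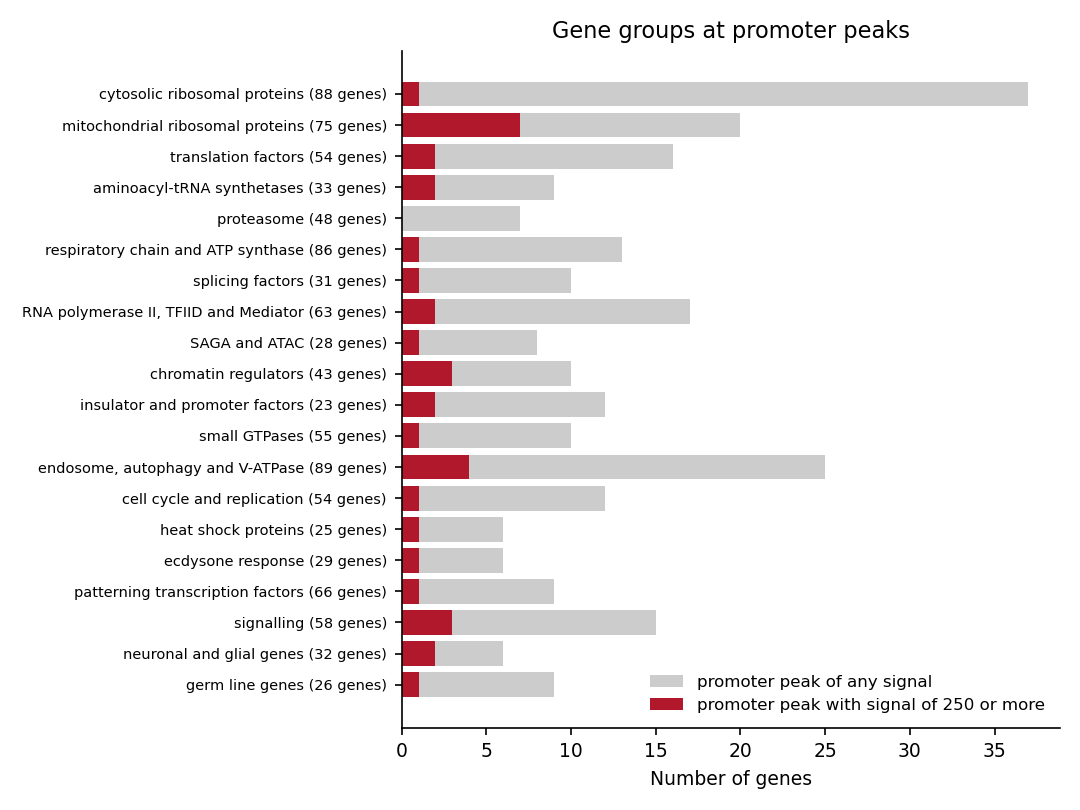
Number of genes in each group with a promoter peak of any signal (grey, full bar) and with one of at least 250 (red), for groups with at least 5 genes that had a peak. The red part is longest for mitochondrial ribosomal proteins (7 of 20) and covers 1 of 37 for cytosolic ribosomal proteins. A peak shared between genes counts for each of them.

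Every member was found in both replicates' own thresholded lists (463 of 463, interval 99.2 to 100%), against 46.6% of other peaks and 51.7% of all. Among other peaks this was 98.8% at a signal of 150 to 250 (646 of 654) and 89.5% at 100 to 150. Since the signal of the series list was made from the same replicates, this is a description. The members' signal was 122.3 at the lowest, 206.7 at the median and 1280.4 at the highest in replicate 1, and 68.96, 157.2 and 843.7 in replicate 2. The lowest member stood at percentile 83.36 of replicate 1's list and at 66.91 of replicate 2's. Summits of the replicates lay a median of 10 bp apart in members and 20 bp apart in other peaks found in both lists. Peaks of exactly 310 bp made up 90% of the other peaks, and 310 bp was also their maximum width. Members had a median width of 202 bp (range 98 to 419). The peak caller is not known, so these widths are not read as sizes of binding sites.

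Chosen in 1 replicate and followed in the other, strong peaks recurred. Of the 363 strongest of replicate 1, 362 (99.7%) overlapped a peak of replicate 2's list, and 268 (73.8%) one in its own top 9.65%. Of the 291 strongest of replicate 2, all overlapped a peak of replicate 1's list, and 267 (91.8%) one in its top share. Of the remaining peaks, 62.4% and 79.9% overlapped a peak of the other list. The top sets differ in size, so each share belongs to its own list.

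**Figure D5:**
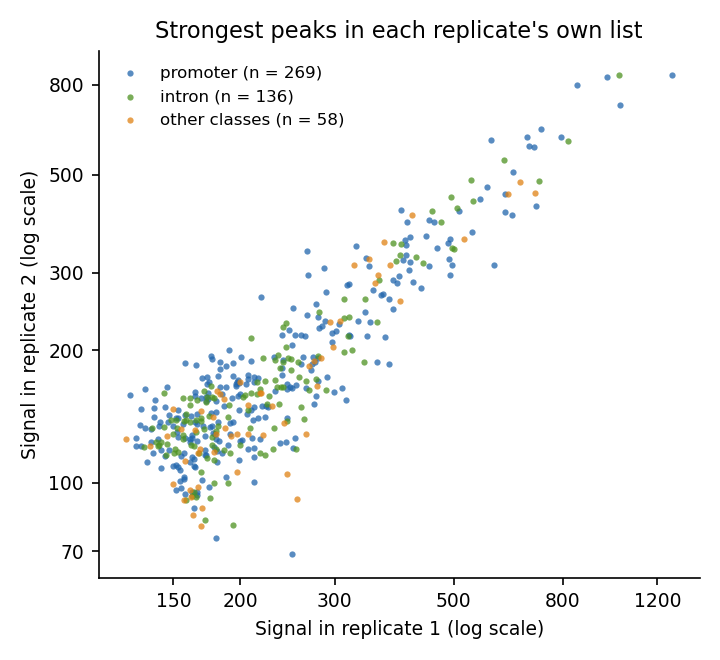
Signal of the 463 peaks in the thresholded list of replicate 1 (x axis) and of replicate 2 (y axis), both on log scales, with promoter peaks in blue (269), intron peaks in green (136) and other classes in orange (58). Every point has a value in both lists, from 122.3 to 1280.4 on the x axis and from 68.96 to 843.7 on the y axis; the other classes reach 708.4 and 481.4.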

How the data were processed

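Peak lists of 2 replicates and of the series were used, on dm6. Per the labels and the notes deposited by the authors, peaks were called on alignments with a control and thresholded on the irreproducible discovery rate. The aligner was not given in the sources used here, nor was the caller. Each deposited score is that rate rescaled by the authors, at least 830 in the conservative list. The deposited signal is the peak caller's value, not normalised between lists. The deposited −log10 values are q-values of the peak caller and were used only to check the files. Ranked lists of the series were not used, and 1 of 4797 peaks, outside the 7 arms, was left out.

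Summits were placed on genes of Ensembl release 115 and on NCBI Release 6 sequence in Python 3.11.15, with pandas 2.3.3 and numpy 2.4.6. Intervals used scipy 1.17.1 and figures matplotlib 3.10.9. A promoter call came before UTR or coding sequence, and these came before introns. Overlap means at least 1 bp. Overlap and motif functions were tested on simulated data, and the TSS distance function on annotated starts. Replicates were grouped by the labels, which call them biological.

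Named genes were those at the 30 strongest promoter peaks, the 15 strongest elsewhere, up to 5 members per gene list and 3 peaks on each side of the threshold. Members, the 22 gene lists and the 12 motifs were chosen with earlier results of these data known. Loci with several members, genes with members in their introns, NFAT, the tagged gene and candidates missing from the list were named after their values were seen. Alternatives were other thresholds, TSS definitions, lists, overlaps and windows, and each replicate alone.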

Additional observations from a re-analysis of the deposited data

How the results depend on the processing

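Of 53 alternative values of the shares and medians, 41 stayed inside the main 95% interval, and the difference between members and other peaks kept its sign in 52. The exception was the share of promoter peaks serving more than 1 gene, which without replicate 2 was 34.5% against 35.5% in the rest. For 2 of the results the sign was largely set in advance, so their alternatives add little to the 52. These were the hexamer pair, chosen by its excess in members, and presence in both replicates, which is tied to the signal. The promoter share was 63.9% at a threshold of 500, 47.7% with a 250 bp window, 69.1% with a 1000 bp window and 44.1% with the most 5' TSS only. The intron share was 23.8%, 35.6%, 20.1% and 41.7% under the same settings, which follows from the definitions of the window and the TSS. With the most 5' TSS only, the median position was -128 bp and the shared share 45.6%. The median GC drop was 18.2 points at a threshold of 500. For the threshold of 500 the cause was not tested. Leaving out a replicate gave promoter shares of 56.7% to 61.2%, intron shares of 28.2% to 29.5%, shared promoters of 34.5% to 39.3%, positions of -144 to -135 bp, hexamer pairs at 10.7% to 13.1% and GC drops of 16.4 to 17.3 points. The alternatives for the hexamer pair and GC were chosen after seeing the data. Of 24 motif alternatives, 15 left the main interval, mostly in the shorter window. No paired analysis was possible because there is 1 group. Without depth or the control, signal cannot be set against background.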

Other observations

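Some strong candidates in the replicates' own ranked lists had no peak in the conservative list, so they could not be members. Of the 463 strongest candidates of replicate 1, 15 (3.24%, interval 1.82 to 5.29) overlapped no peak of that list, and of those of replicate 2, 12 (2.59%, 1.35 to 4.48). The strongest in both replicates lay at -1416 and -1413 bp from the TSS of cbt, which encodes a zinc-finger transcription factor, with signals of 1093.5 and 846.3. Candidates upstream of Lk6, a kinase gene (677.7 and 539.8), and of larp, an RNA-binding protein gene (491.0 and 363.4), followed in both. The cause was not tested.

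By chromosome arm, 104 of the 463 members lay on X (22.5%, interval 18.7 to 26.5), with 19% of other peaks there, and none lay on the fourth chromosome, which held 6 of the other peaks.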
